A study of Musculus with 2 samples.

Results

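Dividing macrophages were the subcutaneous fat macrophages chosen by the counts of 2 division genes, with at least 3 UMIs (unique molecular identifiers, 1 per captured RNA molecule) in the sum of Mki67, which encodes the proliferation protein Ki-67, and Top2a, which encodes DNA topoisomerase II alpha. They numbered 589 of 7351 gated macrophages and of 24090 cells that passed the cell filter, with 373 in the LPCAT3-AKO library and 216 in the control library. A gated macrophage had 500 or more detected genes, at most 10% mitochondrial UMIs, 1 or more UMIs of Csf1r, 10 or more UMIs of Lyz2 or of C1qa, C1qb and C1qc together, fewer than 10 UMIs of Dcn and none of Flt3. The 5862 gated macrophages with no Mki67 or Top2a UMI, 2410 in the LPCAT3-AKO and 3452 in the control library, are called non-dividing here. The 900 with 1 or 2 UMIs (444 in the LPCAT3-AKO and 456 in the control library) belonged to neither group.

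The cells came from the stromal vascular fraction of mouse subcutaneous white adipose tissue (sWAT), obtained by collagenase digestion, removal of the floating adipocytes and lysis of red cells. RNA of single cells was read on the 10x Genomics platform, in 1 library of genotype LPCAT3 knockout, titled LPCAT3-AKO, and 1 control library of genotype WT. The protocol in the labels gives mice of 5 weeks and the design text of the series gives CD-fed mice aged 2 months, and the labels leave this difference unsettled. The deleted exons, the cells in which the gene was deleted and the number of mice behind a library are not stated in the labels. LPCAT3 is an enzyme that esterifies lysophosphatidylcholine, with a preference for polyunsaturated acyl chains. With 1 library per genotype there is no replicate, no test between genotypes was made, and all intervals are 95% intervals that cover counting error only.

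Macrophages of adipose tissue are kept up both by monocytes that arrive from the blood and by division of the cells already in the tissue. Before division a cell copies its DNA in S phase, when the licensing and replication proteins are made, and then builds the spindle and separates its chromosomes in mitosis, when cyclin B and its kinase act. Fat holds resident macrophages that carry the hyaluronan receptor Lyve1 and the folate receptor Folr2 and lie near vessels, and other macrophages that lack them. Lyz1 encodes a lysozyme, Retnla a secreted protein induced by interleukin-4, and Plac8 a protein that is high in classical monocytes.

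The LPCAT3-AKO library held 119355147 UMIs in 12806 barcodes and the control library 111669076 UMIs in 13831 barcodes. Of these barcodes 58 occurred in both libraries, and none of the dividing macrophages of one library had the barcode of a dividing macrophage of the other. Dividing macrophages were deeper than non-dividing ones, with a median of 14561 UMIs and 3896 genes in the LPCAT3-AKO library and 12485 UMIs and 3498.5 genes in the control library. Non-dividing macrophages had medians of 7463.5 UMIs in the LPCAT3-AKO and 6395.5 UMIs in the control library. In CPM (UMIs of a gene per 1000000 UMIs of a group), the targeted gene, Lpcat3, had 24.9 CPM in dividing against 24.8 CPM in non-dividing LPCAT3-AKO cells and 21.1 against 22.8 CPM in control cells, which does not check the deletion, since the sequenced end of a transcript may not be the piece that was removed. Doublet scores from Scrublet were among the highest of their library in 7.24% of LPCAT3-AKO and 13.4% of control dividing macrophages. Among non-dividing macrophages the shares were 2.16% in the LPCAT3-AKO and 3.13% in the control library. The number of highest scores was set by the number of kept cells. It came to 9.33% of all kept LPCAT3-AKO and 9.94% of all kept control cells. Only the control dividing macrophages lay above the share of their library. Scrublet's own threshold marked 4.80% of all kept LPCAT3-AKO cells and 4.74% of all kept control cells, and 1.34% of the LPCAT3-AKO and none of the 216 control dividing macrophages.

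Many of the dividing cells lay far above the cut. In the LPCAT3-AKO library 220 of the 373 dividing cells had over 10 UMIs of Mki67 and Top2a, with a median of 16, and in the control library 107 of 216 did, with a median of 10. Just inside the cut, 56 LPCAT3-AKO and 38 control cells had exactly 3 UMIs, and just outside it 86 LPCAT3-AKO and 82 control cells had exactly 2. Mki67 was seen in 361 of the LPCAT3-AKO and 210 of the control cells, and Top2a in 320 and 183 cells of the same libraries. The other given markers are Nusap1, a spindle protein, Cenpf, a kinetochore protein, and Birc5 (survivin), a subunit of the chromosomal passenger complex. At least 3 UMIs of these 3 genes together were present in 67.3% (62.3 to 72.0) of LPCAT3-AKO and 52.3% (45.4 to 59.1) of control dividing cells. The same held for 4 of 2410 LPCAT3-AKO and 1 of 3452 control non-dividing cells. Many of the dividing cells, but not all, thus also carried division genes that the cut did not use. The non-dividing cells were chosen for the absence of Mki67 and Top2a and were shallower, so this is a description and no test. The macrophage genes of the gate were less even, and 10 or more C1q UMIs were present in 79.9% of LPCAT3-AKO and 63.9% of control dividing cells, against 88.2% of LPCAT3-AKO and 91.5% of control non-dividing cells. Lyz2, the lysozyme of myeloid cells in general, reached 10 UMIs in 97.6% of LPCAT3-AKO and 99.5% of control dividing cells.

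Dividing cells made up a larger share of macrophages in the LPCAT3-AKO library. The share was 11.6% (10.5 to 12.7) of gated macrophages in the LPCAT3-AKO library and 5.24% (4.58 to 5.96) in the control library, a ratio of 2.21 (1.86 to 2.62). After every macrophage was thinned to 5000 UMIs, which evens out depth, the share was 9.95% in the LPCAT3-AKO and 5.01% in the control library, a ratio of 1.99 (1.62 to 2.45). Thinning left out 3.49% of LPCAT3-AKO and 3.24% of control dividing cells and 23.9% of LPCAT3-AKO and 33.3% of control non-dividing cells as too shallow. The ratio was 2.34 once the cells with the highest doublet scores were removed, when the share was 11% in the LPCAT3-AKO and 4.71% in the control library.

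The higher share was also found outside the macrophage gate. The cells there can include macrophages that failed a part of the gate, and these shares were not evened for depth. Outside the macrophage gate 3 or more Mki67 and Top2a UMIs were present in 4.14% of LPCAT3-AKO and 2.55% of control cells, a ratio of 1.62 (1.36 to 1.93). In fibroblast-gated cells (Pdgfra present, 10 or more Dcn UMIs, no Csf1r, fewer than 10 C1q UMIs) the share was 1.24% in the LPCAT3-AKO and 0.486% in the control library, a ratio of 2.55 (1.57 to 4.27). Gated macrophages made up 51.7% of all dividing cells in the LPCAT3-AKO and 50.5% in the control library, although they were 27.7% of kept LPCAT3-AKO and 33.2% of kept control cells. In both libraries gated macrophages thus held more of the dividing cells than of the cells at large.

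**Figure D1:**
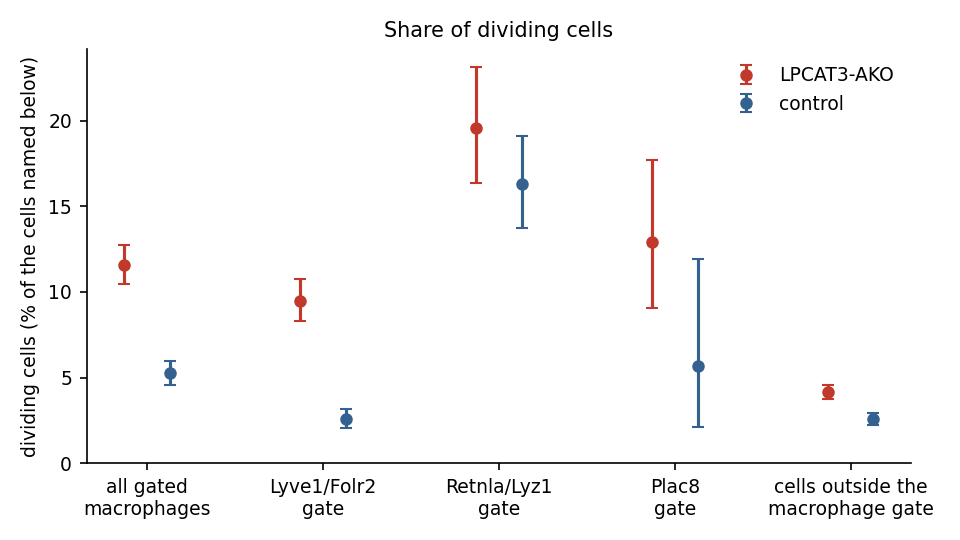
Share of cells with 3 or more Mki67 and Top2a UMIs (vertical axis, percent of the cells named below) in the LPCAT3-AKO library (red, left of each pair) and the control library (blue). Points are shares and bars exact 95% intervals for counting error. The LPCAT3-AKO point lies above the control point in all 5 groups, and the intervals are apart for all gated macrophages, the Lyve1/Folr2 gate and the cells outside the macrophage gate.

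Which macrophages divided differed between the libraries. Each macrophage was placed by 3 marker gates that the cut does not use. A cell with 3 or more UMIs of Lyve1 and Folr2 went to the Lyve1/Folr2 gate. Of the rest, a cell with 3 or more Plac8 UMIs went to the Plac8 gate, a remaining cell with 3 or more UMIs of Retnla and Lyz1 went to the Retnla/Lyz1 gate, and the others had no gate. In the LPCAT3-AKO library 57.6% (52.4 to 62.7) of dividing cells lay in the Lyve1/Folr2 gate and 29.2% (24.7 to 34.1) in the Retnla/Lyz1 gate. In the control library 37.0% (30.6 to 43.9) lay in the Lyve1/Folr2 gate and 56.9% (50.1 to 63.6) in the Retnla/Lyz1 gate. Non-dividing cells were mostly in the Lyve1/Folr2 gate in both, with 73.7% in the LPCAT3-AKO and 79.0% in the control library, and 14.4% of LPCAT3-AKO and 14.9% of control non-dividing cells lay in the Retnla/Lyz1 gate. The part in the Retnla/Lyz1 gate was thus larger among dividing than among non-dividing cells in both libraries, and more so in the control. A Retnla UMI was seen in 96.8% of LPCAT3-AKO and 98.6% of control dividing cells. Among non-dividing cells it was seen in 95.4% in the LPCAT3-AKO and 97.0% in the control library. Retnla thus hardly sorted the macrophages, and that gate rests largely on few Lyve1, Folr2 and Plac8 UMIs.

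Seen from the gates, the Retnla/Lyz1 gate held the highest share of dividing cells in both libraries before thinning, and the Lyve1/Folr2 gate had the largest ratio between the libraries. Of the Retnla/Lyz1 gate 19.6% (16.4 to 23.1, 109 of 557 cells) were dividing in the LPCAT3-AKO and 16.3% (13.7 to 19.1, 123 of 756 cells) in the control library. The ratio of 1.20 had an interval of 0.921 to 1.57, so a difference in that gate was not detectable at this number of cells. Where 10 or more C1q UMIs were required, the shares of that gate were 19.3% in the LPCAT3-AKO and 12.3% in the control library, and the interval of the ratio of 1.57 (1.05 to 2.35) excluded 1. Of the Lyve1/Folr2 gate 9.45% (8.28 to 10.7, 215 of 2275 cells) were dividing in the LPCAT3-AKO and 2.57% (2.04 to 3.19, 80 of 3116 cells) in the control library, a ratio of 3.68 (2.84 to 4.82). In the Plac8 gate 33 of 255 LPCAT3-AKO cells and 6 of 106 control cells were dividing, 12.9% in the LPCAT3-AKO and 5.66% in the control library, with a ratio of 2.29 (0.946 to 6.67). Thinned to 5000 UMIs, the dividing share of the Lyve1/Folr2 gate was 7.33% in the LPCAT3-AKO and 2.18% in the control library, and that of the Retnla/Lyz1 gate 18.1% in the LPCAT3-AKO and 15.3% in the control library. The Retnla/Lyz1 gate was thus above the Lyve1/Folr2 gate at even depth too. Cells in no gate were 20.8% dividing in the LPCAT3-AKO (11 of 53 cells) and 16.7% in the control library (8 of 48 cells) after thinning, above the Retnla/Lyz1 gate, against 11.4% in the LPCAT3-AKO and 4.79% in the control library before thinning. In thinned fibroblast-gated cells 18.3% of LPCAT3-AKO and 21.4% of control cells had 2 or more UMIs of Retnla and Lyz1, the thinned form of that gate. For the Plac8 gate the share of fibroblast-gated cells was 56.0% in the LPCAT3-AKO and 70.6% in the control library, and for the Lyve1/Folr2 gate 1.01% in the LPCAT3-AKO and 0.854% in the control library.

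The makeup depended on how strictly a macrophage was defined. Where 10 or more C1q UMIs were required of every cell, 71.5% of LPCAT3-AKO and 57.2% of control dividing cells lay in the Lyve1/Folr2 gate and 18.5% of LPCAT3-AKO and 35.5% of control dividing cells in the Retnla/Lyz1 gate. The control majority then lay in the Lyve1/Folr2 gate and no longer in the Retnla/Lyz1 gate, while its Retnla/Lyz1 share was still above that of the LPCAT3-AKO library. With the highest doublet scores removed, 1.78% of the control Lyve1/Folr2 gate was dividing and the ratio to the LPCAT3-AKO library was 4.97.

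Single genes were compared in cells thinned to 5000 UMIs, beside fibroblast-gated cells, which had medians of 9850 UMIs in the LPCAT3-AKO and 10010.5 UMIs in the control library before thinning. A Lyve1 UMI was seen in 38.3% of LPCAT3-AKO and 30.6% of control dividing cells and in 69.9% of LPCAT3-AKO and 78.6% of control non-dividing cells, against 4.72% of LPCAT3-AKO and 5.96% of control fibroblast-gated cells. Without thinning the Lyve1 shares were 49.1% in LPCAT3-AKO and 38.4% in control dividing cells and 70.7% in LPCAT3-AKO and 78.2% in control non-dividing cells. Lyz1 was seen in 39.7% of LPCAT3-AKO and 56.9% of control dividing cells and in 22.9% of LPCAT3-AKO and 25.1% of control non-dividing cells, with 2.45% of LPCAT3-AKO and 3.64% of control fibroblast-gated cells. Lyve1 was therefore seen in fewer and Lyz1 in more of the dividing than of the non-dividing cells in both libraries. Ccr2, the receptor that draws monocytes into tissue, was seen in 75% of LPCAT3-AKO and 86.6% of control dividing cells, in 46.9% of LPCAT3-AKO and 43.2% of control non-dividing cells, and in 2.66% of LPCAT3-AKO and 2.37% of control fibroblast-gated cells. Without thinning, Lyz1 was seen in 53.1% of LPCAT3-AKO and 65.3% of control dividing cells, and Ccr2 in 80.4% of LPCAT3-AKO and 90.3% of control dividing cells. Plac8 and Retnla cannot be read as shares of cells, because fibroblast-gated cells carried a Plac8 UMI in 68.9% of the LPCAT3-AKO and 81.9% of the control cells and a Retnla UMI in 51.9% of the LPCAT3-AKO and 55.3% of the control cells. For Plac8 these shares were above those of non-dividing macrophages, 53.7% in the LPCAT3-AKO and 55.9% in the control library. Fibroblast-gated cells are thus no blank for Plac8.

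**Figure D2:**
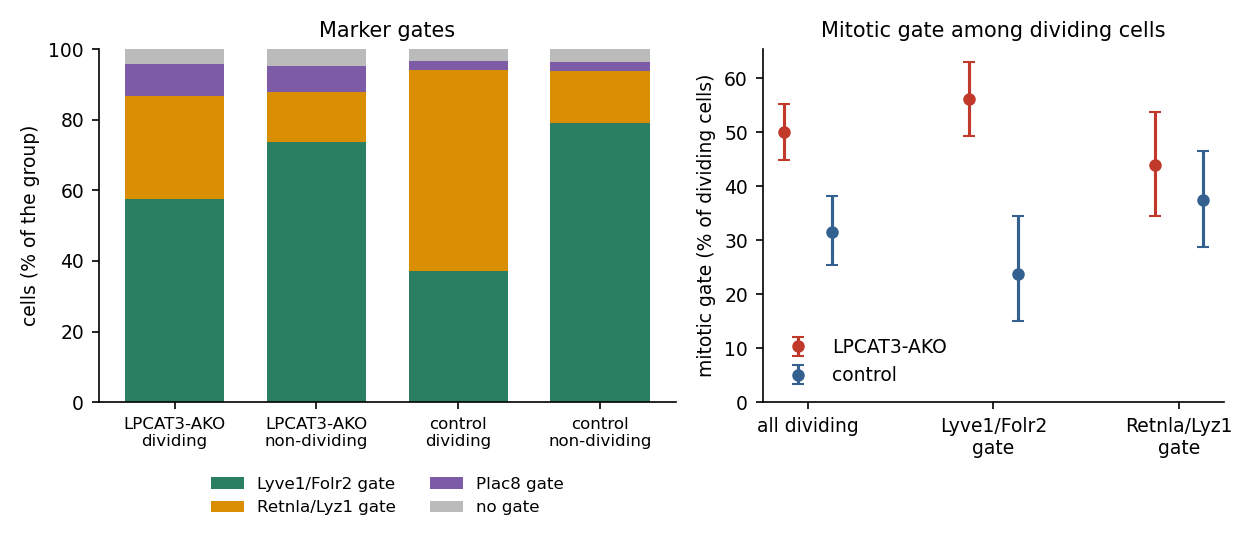
Left, makeup of dividing and non-dividing macrophages by marker gate in each library (stacked bars, percent of cells). Right, percent of dividing cells in the mitotic gate (5 or more UMIs of 6 mitotic genes), for all dividing cells and within the Lyve1/Folr2 and Retnla/Lyz1 gates, with exact 95% intervals for counting error, LPCAT3-AKO in red and control in blue. The Retnla/Lyz1 gate takes 29.2% of LPCAT3-AKO and 56.9% of control dividing cells, and the mitotic share of the Lyve1/Folr2 gate is 56.3% in the LPCAT3-AKO and 23.8% in the control library.

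Levels were then compared as CPM of the UMIs summed over the cells of a group, and ratios as log2 of CPM + 1. A gene passes the size rule as higher or lower when its level is at least 20 CPM in either group, the levels differ at least 1.5-fold and the counting interval of their ratio excludes 1, and, for dividing over non-dividing cells, when both libraries pass in the same direction. Of 6206 genes measured at 20 CPM or more, 764 (12.3%) were higher and 592 (9.54%) lower in dividing cells, and none was called in opposite directions in the libraries. The median log2 ratio over all of them was 0.026 in the LPCAT3-AKO and 0.0067 in the control library. Since division genes chose the cells, what follows describes the group and is no test. A list member under 20 CPM counts as not measured, and a gene that is silent in non-dividing cells is measured only where dividing cells have it.

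Genes of the resident macrophage were lower in dividing cells. All 11 measured members of the Lyve1 resident list passed the size rule as lower, with medians of -1.13 in the LPCAT3-AKO and -2.08 in the control library. Lyve1 itself had 456 CPM in dividing against 1478 CPM in non-dividing LPCAT3-AKO cells and 311 against 1854 CPM in control cells, log2 ratios of -1.69 in the LPCAT3-AKO and -2.57 in the control library. Folr2 had 581 CPM in dividing against 1274 CPM in non-dividing LPCAT3-AKO cells and 301 against 1279 CPM in control cells, log2 ratios of -1.13 in the LPCAT3-AKO and -2.08 in the control library. Both genes were lower in the dividing cells of either library, and lowest in the control dividing cells. Cd163, the receptor for haemoglobin bound to haptoglobin, had 373 CPM in dividing against 956 CPM in non-dividing LPCAT3-AKO cells and 186 against 1010.2 CPM in control cells. Timd4, a receptor for phosphatidylserine on dying cells, had 68.3 CPM in dividing against 182 CPM in non-dividing LPCAT3-AKO cells and 23.8 against 162 CPM in control cells. Selenop, a secreted selenium carrier, had 1566 CPM in dividing against 4348 CPM in non-dividing LPCAT3-AKO cells and 775 against 3636 CPM in control cells. The control dividing cells were the lowest of the 4 groups for each of these genes. Gas6, a bridge between dying cells and the receptor Mertk, had 279 CPM in dividing against 774 CPM in non-dividing LPCAT3-AKO cells and 160.3 against 728 CPM in control cells.

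The difference was smaller at an even makeup and was also present within a gate. With non-dividing cells weighted to the gate makeup of the dividing cells, the medians were -0.78 in the LPCAT3-AKO and -1.04 in the control library. Lyve1 and Folr2 of this list also build the gates, so the smaller difference follows at least in part from the weighting. With non-dividing cells weighted to the depth of the dividing cells instead, the medians were -0.75 in the LPCAT3-AKO and -1.68 in the control library. Within the Lyve1/Folr2 gate 10 of 11 members were lower past the size rule, with medians of -0.80 in the LPCAT3-AKO and -1.03 in the control library, against 6.67% of all genes measured there. In that gate Lyve1 had 765 CPM in dividing against 1966 CPM in non-dividing LPCAT3-AKO cells, and 824 against 2324 CPM in control cells. Lyve1 and Folr2 define that gate, but Cd163 does not, and it had 592 CPM in dividing against 1226 CPM in non-dividing LPCAT3-AKO cells and 421 against 1225 CPM in control cells there. The lower level of resident genes in dividing cells was thus also seen among cells of the same gate. Dividing cells of that gate were deeper, with a median of 14938 against 7878 UMIs in the LPCAT3-AKO and 12005.5 against 6450.5 UMIs in the control library. A deeper cell reaches 3 UMIs of Lyve1 and Folr2 at a lower CPM. The levels within the gate were not compared at even depth.

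Among the general macrophage genes the differences were smaller. Of 15 measured members of the core list 6 were lower and none higher, with medians of -0.51 in the LPCAT3-AKO and -0.68 in the control library. Csf1r, the receptor for the macrophage growth factor CSF1, had 554 CPM in dividing against 981 CPM in non-dividing LPCAT3-AKO cells and 457 against 918 CPM in control cells. C1qa, a subunit of the complement starter C1q, had 2285 CPM in dividing against 4419.6 CPM in non-dividing LPCAT3-AKO cells and 1529 against 4274 CPM in control cells. Maf, a transcription factor of mature macrophages counted in the resident list, had 854 CPM in dividing against 1696 CPM in non-dividing LPCAT3-AKO cells and 519 against 1592 CPM in control cells. All 3 genes were lower in the dividing cells of both libraries. Lyz2 had 5525 CPM in dividing against 5805 CPM in non-dividing LPCAT3-AKO cells and 6184 against 5565 CPM in control cells, and did not pass the size rule.

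Most measured genes of the Retnla Lyz1 list were higher. Of the 7 measured members of the Retnla Lyz1 list 4 were higher and 2 lower, with medians of 0.63 in the LPCAT3-AKO and 1.36 in the control library. Lyz1 had 775 CPM in dividing against 499.9 CPM in non-dividing LPCAT3-AKO cells and 1481 against 534 CPM in control cells. Fn1, which encodes fibronectin, had 1529.5 CPM in dividing against 832 CPM in non-dividing LPCAT3-AKO cells and 2326 against 751 CPM in control cells, and Ear2, a ribonuclease of the eosinophil type, had 345 CPM in dividing against 204 CPM in non-dividing LPCAT3-AKO cells and 562 against 218 CPM in control cells. All 3 were higher in dividing cells and highest in the control dividing cells, although in the LPCAT3-AKO library none of them was higher at even depth. Retnla had 13617 CPM in dividing against 15859 CPM in non-dividing LPCAT3-AKO cells and 16241 against 16749 CPM in control cells and did not pass. Mgl2, a lectin of alternatively activated macrophages, was one of the lower members, with 419 CPM in dividing against 667 CPM in non-dividing LPCAT3-AKO cells and 339 against 697 CPM in control cells. Non-dividing cells were also weighted to the gate makeup of the dividing cells. The median of the list then became -0.10 in the LPCAT3-AKO and -0.18 in the control library. Retnla and Lyz1 of this list also build the gates, so this change follows at least in part from the weighting and is no separate finding. With non-dividing cells weighted to the depth of the dividing cells the median was -0.20 in the LPCAT3-AKO and 0.49 in the control library.

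Of the 12 monocyte genes only 4 were measured, and the markers were mixed. The 3 higher ones were Ccr2, S100a4 and Ear2, which is also in the Retnla Lyz1 list. Ccr2 had 808 CPM in dividing against 519 CPM in non-dividing LPCAT3-AKO cells and 848 against 385 CPM in control cells. S100a4, a calcium-binding protein, had 1156 CPM in dividing against 551 CPM in non-dividing LPCAT3-AKO cells and 1218 against 406 CPM in control cells. Within the Retnla/Lyz1 gate Ccr2 had 1185 CPM in dividing against 1312 CPM in non-dividing LPCAT3-AKO cells and 1055 against 1149 CPM in control cells, so it did not differ past the size rule there, where 9.39% of all measured genes were higher and 2.39% lower in dividing cells. Within the Lyve1/Folr2 gate it did, with 541 CPM in dividing against 263 CPM in non-dividing LPCAT3-AKO cells and 486 against 205 CPM in control cells. Plac8 had 355 CPM in dividing against 475 CPM in non-dividing LPCAT3-AKO cells and 132 against 386 CPM in control cells, and passed as lower in the control library alone. Ly6c2, another gene of the monocyte list, also had a lower level in the dividing cells of both libraries. In the control library it was too low to count as measured. Of 7 class II genes 1 was higher, a share near the 12.3% of all measured genes. It was H2-DMb1, a chaperone of peptide loading, at 424 CPM in dividing against 278 CPM in non-dividing LPCAT3-AKO cells and 507 against 248 CPM in control cells.

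**Figure D3:**
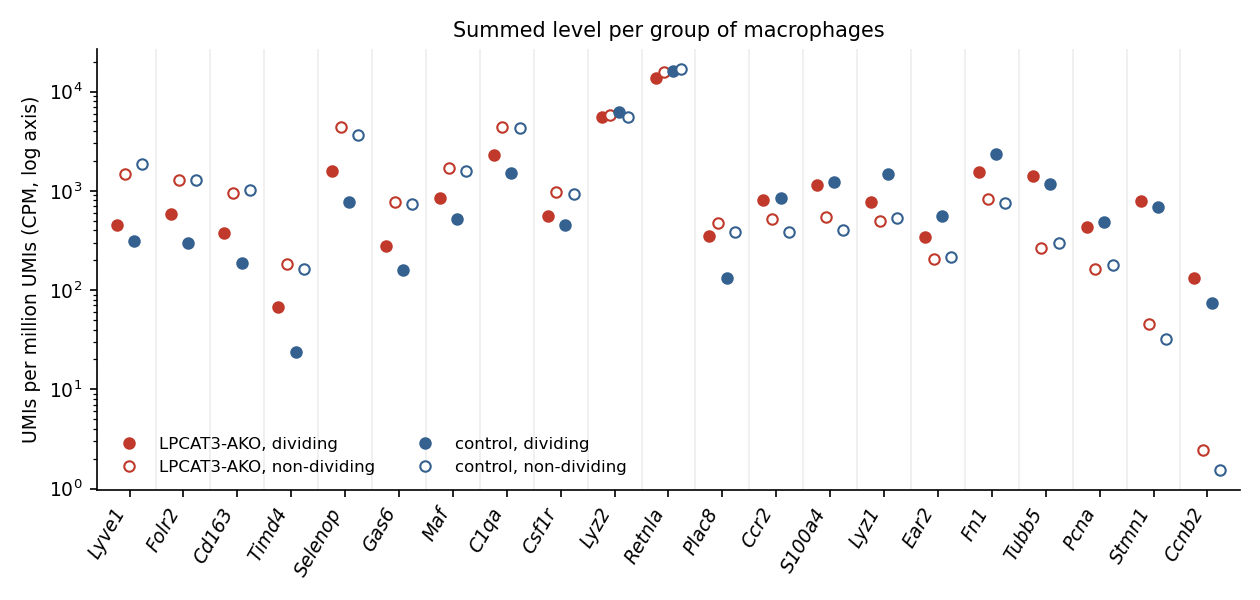
Level of 17 macrophage genes and 4 division genes (vertical axis, CPM on a log axis) in dividing cells (filled) and non-dividing cells (open) of the LPCAT3-AKO library (red) and the control library (blue). From Lyve1 to Csf1r the filled points lie below the open ones in both libraries, at Lyz2 and Retnla they nearly coincide, and from Ccr2 to Ccnb2 they lie above.

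The genes of DNA replication were higher in dividing cells without an exception among the measured ones. All 35 measured of the 38 members of the replication fork and licensing list passed, with medians of 2.40 in the LPCAT3-AKO and 2.36 in the control library. Pcna, the sliding clamp of the DNA polymerases, had 428 CPM in dividing against 162 CPM in non-dividing LPCAT3-AKO cells and 481 against 178 CPM in control cells. Mcm5, a subunit of the replicative helicase, had 149 CPM in dividing against 19.8 CPM in non-dividing LPCAT3-AKO cells and 158 against 16.2 CPM in control cells, and Lig1, the ligase that joins Okazaki fragments, had 153 CPM in dividing against 15.6 CPM in non-dividing LPCAT3-AKO cells and 136 against 10.4 CPM in control cells. The levels of the dividing cells were close in both libraries. Rrm2, the regulated subunit of ribonucleotide reductase, had 141 CPM in dividing against 1.37 CPM in non-dividing LPCAT3-AKO cells and 145 against 0.872 CPM in control cells, and 10 of the 11 measured genes of nucleotide synthesis were higher. All 8 measured genes of S-phase repair were higher, with medians of 3.85 in the LPCAT3-AKO and 4.07 in the control library. Not all replication genes were silent in the non-dividing cells: the replication gate (5 or more UMIs of Mcm2 to Mcm7, Pcna, Tyms and Rrm2) held 74.0% of LPCAT3-AKO and 73.1% of control dividing cells, and still 12.8% of LPCAT3-AKO and 9.30% of control non-dividing cells.

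Histone and chromatin genes followed, with all 15 measured members higher and medians of 3.21 in the LPCAT3-AKO and 3.26 in the control library. Hist1h1b, a linker histone, had 259.6 CPM in dividing against 1.23 CPM in non-dividing LPCAT3-AKO cells and 247 against 0.415 CPM in control cells, and H2afz, the histone variant H2A.Z, had 1221 CPM in dividing against 381 CPM in non-dividing LPCAT3-AKO cells and 1457 against 369.7 CPM in control cells. Of the 15 measured genes of G1/S control 10 were higher. Ccne2, a cyclin E that starts S phase, had 38.1 CPM in dividing against 0.785 CPM in non-dividing LPCAT3-AKO cells and 41.1 against 0.499 CPM in control cells, and Cdk4, a kinase of G1, had 80.0 CPM in dividing against 36.0 CPM in non-dividing LPCAT3-AKO cells and 76.7 against 34.7 CPM in control cells. Ccne2 was thus nearly absent from non-dividing cells, while Cdk4 was well measured in them.

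The mitotic lists had larger medians than the replication list. Of the mitotic cyclins and kinases 21 of 22 were higher, with medians of 4.06 in the LPCAT3-AKO and 3.84 in the control library. Of the spindle list 33 of 35 were higher, with medians of 4.65 in the LPCAT3-AKO and 4.35 in the control library, and of the kinetochore list all 21, with medians of 4.45 in the LPCAT3-AKO and 4.07 in the control library. Ccnb1, a cyclin B, had 85.3 CPM in dividing against 0.589 CPM in non-dividing LPCAT3-AKO cells and 42.8 against 0.291 CPM in control cells. Cdk1, the kinase that cyclin B activates, had 131 CPM in dividing against 3.83 CPM in non-dividing LPCAT3-AKO cells and 101 against 3.86 CPM in control cells, and Cdc20, which turns on the anaphase promoting complex, had 70.7 CPM in dividing against 0.883 CPM in non-dividing LPCAT3-AKO cells and 41.5 against 0.956 CPM in control cells. These genes were almost without UMIs in non-dividing cells. Tubb5 and Tuba1b, the tubulins of the spindle and of the resting cell, had higher baselines, with 1398 CPM in dividing against 262 CPM in non-dividing LPCAT3-AKO cells and 1161 against 296 CPM in control cells for Tubb5. Stmn1, which destabilises microtubules, had 793 CPM in dividing against 45.2 CPM in non-dividing LPCAT3-AKO cells and 687 against 32.4 CPM in control cells. Smc4, a subunit of condensin, had 391 CPM in dividing against 53.7 CPM in non-dividing LPCAT3-AKO cells and 334 against 53.3 CPM in control cells, and all 14 condensation and cohesion genes, Mki67 and Top2a included, were higher. Of 9 genes of the anaphase promoting complex and its targets 6 were higher.

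The highest log2 ratios of all genes, ranked by the smaller of the 2 libraries, were those of Top2a and Mki67, which chose the cells, then Hist1h1b, Pclaf, Birc5, Cenpf, Nusap1, Ccna2, Rrm2, Kif11, Ube2c and Hmmr. Pclaf, a small protein that binds PCNA, had 353 CPM in dividing against 2.16 CPM in non-dividing LPCAT3-AKO cells and 338 against 0.831 CPM in control cells. Hmmr, a spindle protein, had 108 CPM in dividing against 0.147 CPM in non-dividing LPCAT3-AKO cells and 63.2 against 0.208 CPM in control cells. Outside the division lists the highest were Pclaf, Cdca3, Shcbp1, Neil3, Hist1h3c, Lockd, Depdc1a, Iqgap3, Spag5 and Cdkn3. Cdca3, a mitotic entry factor, had 107 CPM in dividing against 1.13 CPM in non-dividing LPCAT3-AKO cells and 70.5 against 0.499 CPM in control cells, and Neil3, a DNA glycosylase, had 38.1 CPM in dividing against 0.392 CPM in non-dividing LPCAT3-AKO cells and 25.6 against 0.125 CPM in control cells. Lockd is a long non-coding RNA next to Cdkn1b and had 46.3 CPM in dividing against 0.441 CPM in non-dividing LPCAT3-AKO cells and 28.0 against 0.291 CPM in control cells. Pclaf is in both rankings. No gene of either ranking turned its sign under any alternative tried. This is no support, since the cut set the sign of Mki67 and Top2a and the others were picked as highest in these data.

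The genes that hold cells out of cycle were mixed. Of 18 measured inhibitors and quiescence genes 5 were lower and 3 higher. Klf4 and Klf2, zinc-finger factors of quiescent cells, were lower, Klf4 with 514 CPM in dividing against 1129 CPM in non-dividing LPCAT3-AKO cells and 499 against 1264 CPM in control cells and Klf2 with 322 CPM in dividing against 670.2 CPM in non-dividing LPCAT3-AKO cells and 322 against 785 CPM in control cells. Tob1, an antiproliferative adaptor, had 35.5 CPM in dividing against 66.7 CPM in non-dividing LPCAT3-AKO cells and 44.2 against 88.5 CPM in control cells. Among the higher was Cdkn2c, which encodes the CDK4 and CDK6 inhibitor p18, with 67.1 CPM in dividing against 7.21 CPM in non-dividing LPCAT3-AKO cells and 42.8 against 6.15 CPM in control cells. Klf4 is also an immediate-early gene, and of 24 measured members of that list 8 were lower and none higher, with medians of -0.54 in the LPCAT3-AKO and -0.57 in the control library, and at even depth -0.31 in the LPCAT3-AKO and -0.28 in the control library. Egr1 had 1989.9 CPM in dividing against 3857 CPM in non-dividing LPCAT3-AKO cells and 1554 against 3649 CPM in control cells and Fos 1624 CPM in dividing against 2567 CPM in non-dividing LPCAT3-AKO cells and 1475 against 2481 CPM in control cells.

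Most of the measured complement and scavenger genes, and fewer of the interferon genes, were lower as well. Of 10 measured complement genes 6 were lower, with medians of -0.87 in the LPCAT3-AKO and -1.36 in the control library. At even depth the medians were -0.38 in the LPCAT3-AKO and -1.04 in the control library. At an even gate makeup they were -0.62 in the LPCAT3-AKO and -0.68 in the control library. Of 15 scavenger and endocytosis genes 10 were lower, with medians of -1.13 in the LPCAT3-AKO and -2.08 in the control library. At even depth the medians were -0.75 in the LPCAT3-AKO and -1.61 in the control library. At an even gate makeup they were -0.79 in the LPCAT3-AKO and -1.21 in the control library, in a list that holds Lyve1 and Folr2 of the gates. Stab1, a scavenger receptor of resident macrophages, had 160.2 CPM in dividing against 347 CPM in non-dividing LPCAT3-AKO cells and 76.4 against 328 CPM in control cells. The medians of the interferon response list were -0.54 in the LPCAT3-AKO and -1.15 in the control library. At an even gate makeup they were -0.40 in the LPCAT3-AKO and -0.60 in the control library. Of its 25 measured genes 11 were lower and 1 higher. The higher one was Cxcl10, a chemokine, with 301 CPM in dividing against 175 CPM in non-dividing LPCAT3-AKO cells and 410.1 against 163 CPM in control cells, and Ly6e was lower, with 1433 CPM in dividing against 2331 CPM in non-dividing LPCAT3-AKO cells and 792 against 2203 CPM in control cells. Of 20 growth factor receptor and signalling genes 10 were lower and 1, Ccr2, was higher. The IL-4 response list had 7 lower and 2 higher of 12, the inflammatory list 3 lower and 4 higher of 24, the lysosome list 4 lower of 18 and the heat shock list 3 lower of 13, and Clec10a, a galactose lectin, had 436 CPM in dividing against 1126 CPM in non-dividing LPCAT3-AKO cells and 275 against 1099.8 CPM in control cells. Over all measured genes 9.54% were lower and 12.3% higher, and the inflammatory list was near these shares. In the IL-4 response, lysosome and heat shock lists a part of the members was lower and the rest mostly did not pass.

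The 15 lowest genes in dividing cells were largely of the same kind. Among them were Cd209f and Cd209g, lectins of the DC-SIGN family, with 213 CPM in dividing against 831 CPM in non-dividing LPCAT3-AKO cells and 146 against 953 CPM in control cells for Cd209f and 62.8 CPM in dividing against 277 CPM in non-dividing LPCAT3-AKO cells and 70.8 against 362 CPM in control cells for Cd209g. Enpep, an aminopeptidase, had 19.4 CPM in dividing against 81.1 CPM in non-dividing LPCAT3-AKO cells and 13.5 against 77.3 CPM in control cells, and C6, a component of the membrane attack complex, had 23.5 CPM in dividing against 91.3 CPM in non-dividing LPCAT3-AKO cells and 7.26 against 86.3 CPM in control cells. Pdgfc, a platelet-derived growth factor, had 30.5 CPM in dividing against 102 CPM in non-dividing LPCAT3-AKO cells and 19.7 against 118 CPM in control cells. Spp1, C2, Cd209b, Colec12, Slc40a1, Atp1b1, Cd209d, Ctla2b and Mmp9 were also among them. Spp1 (osteopontin) ranked lowest of all, at 3.95 CPM in dividing against 53.5 CPM in non-dividing LPCAT3-AKO cells and 1.73 against 23.2 CPM in control cells, but 1 cell held at least 25% of its UMIs in the dividing cells of a library, as 1 cell also did for Cd209b and Slc40a1. Spp1 was the one gene of the 15 whose sign turned under an alternative.

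Several genes of lipid handling were lower. Of 13 lipid-associated macrophage genes 6 were lower and 1 higher, the galectin Lgals3, with 794 CPM in dividing against 527 CPM in non-dividing LPCAT3-AKO cells and 819 against 451 CPM in control cells. Of 7 measured LXR targets 4 were lower and none higher. Abca1, the cholesterol exporter, had 197 CPM in dividing against 422 CPM in non-dividing LPCAT3-AKO cells and 113 against 388 CPM in control cells, and Apoe, the apolipoprotein of cholesterol efflux, had 3158 CPM in dividing against 7686 CPM in non-dividing LPCAT3-AKO cells and 2783 against 11400.2 CPM in control cells. In the list of phospholipid remodelling, to which Lpcat3 belongs, 6 of 16 were lower and 1 higher, with medians of -0.05 in the LPCAT3-AKO and -0.32 in the control library. Cept1, which makes phosphatidylcholine and phosphatidylethanolamine, had 54.2 CPM in dividing against 91.2 CPM in non-dividing LPCAT3-AKO cells and 57.0 against 110.3 CPM in control cells, and Pcyt1a, the rate-setting enzyme of phosphatidylcholine synthesis, had 51.5 CPM in dividing against 86.4 CPM in non-dividing LPCAT3-AKO cells and 31.4 against 73.4 CPM in control cells. Of 11 fatty acid genes 1 was higher and 1 lower.

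Of the genes of growth, some of those for ribosomes and glycolysis were higher. Of 13 measured genes of ribosome biogenesis and translation 7 were higher and none lower. The medians were 0.60 in the LPCAT3-AKO and 0.70 in the control library, and at even depth 0.48 in the LPCAT3-AKO and 0.44 in the control library. Npm1, a nucleolar histone chaperone, had 564 CPM in dividing against 372 CPM in non-dividing LPCAT3-AKO cells and 672 against 390.2 CPM in control cells. Of 13 glycolysis genes 5 were higher, and none lower, such as Gapdh, a glycolytic dehydrogenase, at 815 CPM in dividing against 511 CPM in non-dividing LPCAT3-AKO cells and 836 against 452 CPM in control cells. At even depth the glycolysis median was 0.04 in the LPCAT3-AKO and 0.34 in the control library, against 0.44 in the LPCAT3-AKO and 0.71 in the control library as measured. Oxidative phosphorylation had 1 of 22 genes past the size rule.

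**Figure D4:**
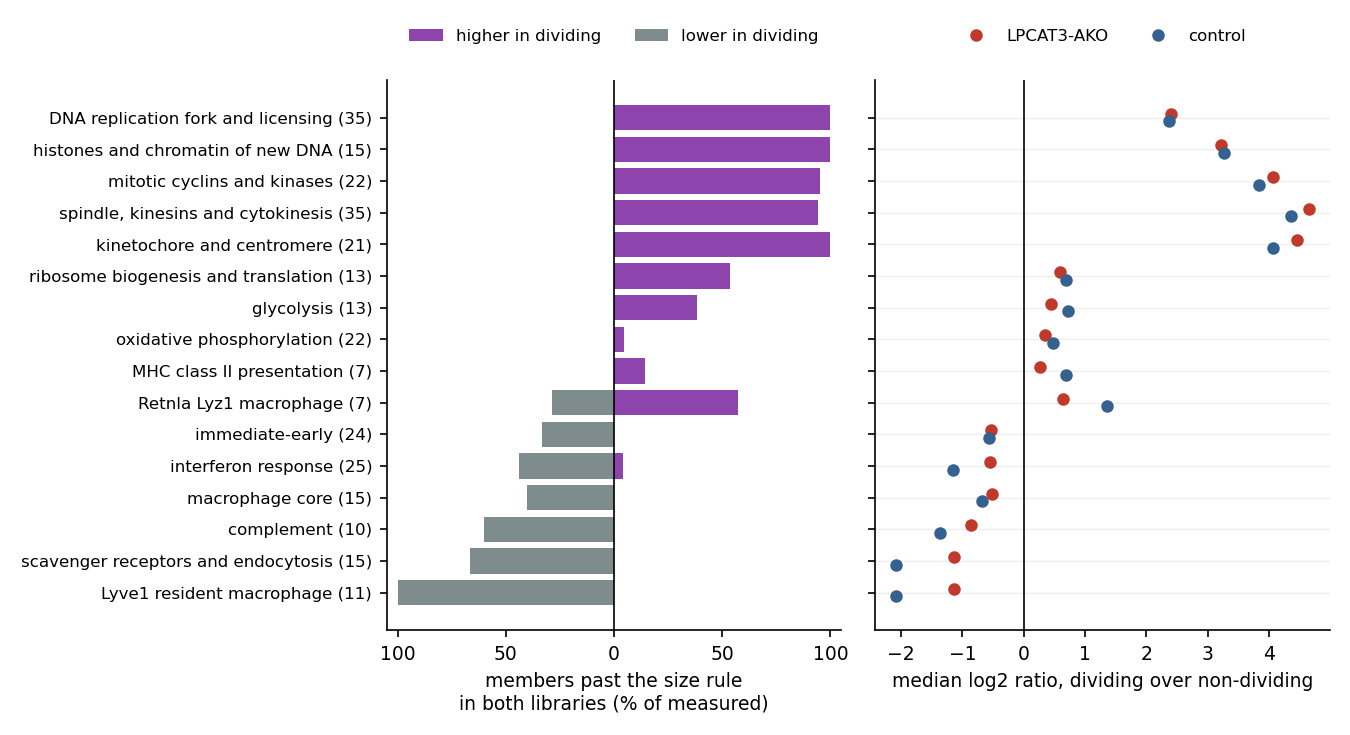
Left, percent of the measured members of each gene list that were higher (purple, to the right) or lower (grey, to the left) in dividing than in non-dividing macrophages past the size rule in both libraries, with the number measured in brackets. Right, median log2 ratio of each list in the LPCAT3-AKO library (red) and the control library (blue). The 5 division lists drawn, from replication to kinetochore, lie between 2.36 and 4.65, and the Lyve1 resident list at -1.13 in the LPCAT3-AKO and -2.08 in the control library.

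Between the libraries, the dividing cells differed in phase. The mitotic gate (5 or more UMIs of Ccnb1, Ccnb2, Cdc20, Plk1, Cenpe and Aurka) held 50.1% (44.9 to 55.3) of LPCAT3-AKO and 31.5% (25.3 to 38.1) of control dividing cells, a ratio of 1.59 (1.20 to 2.13). The replication gate held 74.0% of LPCAT3-AKO and 73.1% of control dividing cells, a ratio of 1.01 (0.829 to 1.24). Cells in the replication gate alone were 33.8% in the LPCAT3-AKO and 48.6% in the control library, and cells in both gates 40.2% in the LPCAT3-AKO and 24.5% in the control library. The cells of the LPCAT3-AKO library thus showed mitotic genes more often and replication genes about as often. Within the Lyve1/Folr2 gate the mitotic share was 56.3% in the LPCAT3-AKO and 23.8% in the control library, a ratio of 2.37 (1.45 to 4.07). Within the Retnla/Lyz1 gate it was 44.0% in the LPCAT3-AKO and 37.4% in the control library, a ratio of 1.18 (0.769 to 1.80). The Lyve1/Folr2 gate held 80 control dividing cells. Removal of the highest doublet scores took its part of control dividing cells from 37.0% to 28.3%, and of LPCAT3-AKO ones from 57.6% to 56.1%. The mitotic shares within the gates were not computed without those cells. With cells thinned to 5000 UMIs and a gate of 2 UMIs, the mitotic share was 52.2% in the LPCAT3-AKO and 37.8% in the control library. Non-dividing cells gave the background of the mitotic gate, which 1 cell of each library passed.

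Of 6337 genes measured in the dividing cells of both libraries, 426 (6.72%) were higher and 172 (2.71%) lower in LPCAT3-AKO cells past the size rule, with a median log2 ratio of 0.059. In non-dividing macrophages 25 of 5948 (0.42%) were higher and 41 (0.689%) lower, with far larger sums of UMIs. The dividing cells were summed over 5828560 UMIs in the LPCAT3-AKO and 2894205 UMIs in the control library, and the non-dividing cells over 20388594 UMIs in the LPCAT3-AKO and 24070820 UMIs in the control library. Single cells carry more weight in the smaller sums.

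A part of the mitotic genes was higher in LPCAT3-AKO dividing cells, and no replication gene passed. None of 35 replication genes passed, with a median of 0.09, and of 13 nucleotide genes 1 was lower, Cad, which starts pyrimidine synthesis, with 12.4 CPM in LPCAT3-AKO and 20.4 CPM in control dividing cells. Of 24 mitotic cyclins and kinases 11 were higher, with a median of 0.49. Of 37 spindle genes 14 were higher with a median of 0.51, and of 25 kinetochore genes 11 were higher with a median of 0.50. Ccnb1 had 85.3 CPM in LPCAT3-AKO and 42.8 CPM in control dividing cells, a log2 ratio of 0.98, and Ccnb2 had 132 CPM in LPCAT3-AKO and 73.6 CPM in control dividing cells, a log2 ratio of 0.83. Nusap1 had 218 CPM in LPCAT3-AKO and 113 CPM in control dividing cells and Kif23, a kinesin of cytokinesis, 203 CPM in LPCAT3-AKO and 112 CPM in control dividing cells. Birc5 had 205 CPM in LPCAT3-AKO and 173 CPM in control dividing cells and did not pass. With the phase gates weighted alike in both libraries the medians were 0.27 for the mitotic cyclins and kinases, 0.14 for the spindle list, 0.27 for the kinetochore list and 0.20 for the replication list. The phase gates are built on genes of these lists, so smaller mitotic medians follow from the weighting and are no separate finding.

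More mitotic genes passed the size rule in the Lyve1/Folr2 gate than in the Retnla/Lyz1 gate. In the Lyve1/Folr2 gate 12 of 24 mitotic cyclins and kinases, 23 of 37 spindle genes and 13 of 26 kinetochore genes were higher in LPCAT3-AKO cells, with medians of 0.62 for the mitotic cyclins and kinases, 0.68 for the spindle list and 0.74 for the kinetochore list, beside 6.58% of all genes measured there, of which 6.46% were lower. In the Retnla/Lyz1 gate 3 of 23 mitotic cyclins and kinases, 3 of 36 spindle genes and 3 of 23 kinetochore genes were higher, with medians of 0.32 for the mitotic cyclins and kinases, 0.26 for the spindle list and 0.22 for the kinetochore list, beside 3.58% of all genes measured there, of which 1.69% were lower. Ccnb2 had 141 CPM in LPCAT3-AKO and 54.3 CPM in control dividing cells of the Lyve1/Folr2 gate, and 118 CPM in LPCAT3-AKO and 87.0 CPM in control dividing cells of the Retnla/Lyz1 gate. The difference between the gates was not tested. Markers of other cells also differed in the Lyve1/Folr2 gate. There 5 of 5 measured epithelial genes (median -2.06), 3 of 3 mural genes (median -2.65) and 3 of 4 endothelial genes (median -1.18) were lower in LPCAT3-AKO than in control dividing cells. Krt19, a keratin, had 169 CPM in LPCAT3-AKO and 510 CPM in control dividing cells of that gate, and Krt8 had 82.6 CPM in LPCAT3-AKO and 483 CPM in control dividing cells. In the Retnla/Lyz1 gate no gene of these 3 lists was measured. Without keratin-positive cells 9.24% of the LPCAT3-AKO and 2.48% of the control Lyve1/Folr2 gate were dividing, a ratio of 3.72. The part of these markers, and of the cells with the highest doublet scores, in the gene counts of the gate was not tested.

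The identity genes of the dividing cells differed along the same lines as their makeup. Of the 11 Lyve1 resident genes 7 were higher in LPCAT3-AKO dividing cells, with a median of 0.79. Of the 7 Retnla Lyz1 genes 4 were lower, with a median of -0.60. Selenop had 1566 CPM in LPCAT3-AKO and 775 CPM in control dividing cells, and Cd163 373 CPM in LPCAT3-AKO and 186 CPM in control dividing cells. Lyz1 had 775 CPM in LPCAT3-AKO and 1481 CPM in control dividing cells, a difference that was gone (a log2 ratio of 0.053) where Dcn was required to be 0, and Fn1 had 1529.5 CPM in LPCAT3-AKO and 2326 CPM in control dividing cells. The scavenger list had 8 of 15 higher with a median of 0.73 and the core list 4 of 15 with a median of 0.40. With the marker gates weighted alike in both libraries these medians were 0.22 for the Lyve1 resident list, -0.11 for the Retnla Lyz1 list, 0.25 for the scavenger list and 0.09 for the core list. At an even makeup these medians were nearer 0. Lyve1, Folr2, Retnla and Lyz1 build the gates and are members of the Lyve1 resident, Retnla Lyz1 or scavenger lists. For these lists the change follows at least in part from the weighting and is no separate finding. Where C1q was required of every cell, the medians were 0.44 for the Lyve1 resident list, -0.38 for the Retnla Lyz1 list, 0.38 for the scavenger list and 0.10 for the core list. The class II list had no member past the size rule and a median of -0.32.

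Among other lists, 5 of 25 inflammatory genes were lower and 2 higher in LPCAT3-AKO dividing cells. Il1b, interleukin-1 beta, had 1171 CPM in LPCAT3-AKO and 2130.5 CPM in control dividing cells, and Il6, interleukin-6, had 268 CPM in LPCAT3-AKO and 517 CPM in control dividing cells. In non-dividing cells Il1b had 824 CPM in LPCAT3-AKO and 762 CPM in control non-dividing cells, and neither cytokine passed there. Of 13 heat shock genes 3 were lower, among them Hspd1, a mitochondrial chaperone, with 152 CPM in LPCAT3-AKO and 236 CPM in control dividing cells. Of 26 interferon genes 6 were higher and 3 lower, with Ifi27l2a higher at 4186 CPM in LPCAT3-AKO and 2071 CPM in control dividing cells and Rsad2, an antiviral enzyme, lower at 159.7 CPM in LPCAT3-AKO and 266 CPM in control dividing cells. Rsad2 was also lower in LPCAT3-AKO non-dividing cells, at 322 CPM in LPCAT3-AKO and 775 CPM in control non-dividing cells. The median of the interferon list in dividing cells was 0.31, and -0.004 with the marker gates weighted alike in both libraries. Where C1q was required it was 0.043. Within the Lyve1/Folr2 gate it was -0.04 and within the Retnla/Lyz1 gate 0.33. Of 18 lysosome genes 4 were higher, such as Grn, which encodes progranulin, at 1387 CPM in LPCAT3-AKO and 778 CPM in control dividing cells. Of 16 phospholipid genes 3 were higher, such as Lpin1, a phosphatidate phosphatase, at 49.2 CPM in LPCAT3-AKO and 24.9 CPM in control dividing cells.

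Among the ranked genes Ly6c2, a surface protein of classical monocytes, was highest in LPCAT3-AKO over control dividing cells, with 79.3 CPM in LPCAT3-AKO and 2.42 CPM in control dividing cells, a log2 ratio of 4.55. It was also higher among non-dividing cells, with 154 CPM in LPCAT3-AKO and 15.8 CPM in control non-dividing cells, a log2 ratio of 3.21. Of its UMIs in control dividing cells, 1 cell held 28.6%, since there were few in all. Plac8 was higher too, with 355 CPM in LPCAT3-AKO and 132 CPM in control dividing cells, while Ccr2 did not differ past the size rule, with 808 CPM in LPCAT3-AKO and 848 CPM in control dividing cells. The next were Mucl1, Cd209b, Gpr183, Colec12, Ang, Cyp27a1, AI506816, C6 and Selenbp1. Gpr183, a receptor for oxysterols, had 20.6 CPM in LPCAT3-AKO and 4.84 CPM in control dividing cells, and Cyp27a1, a sterol hydroxylase, had 23.3 CPM in LPCAT3-AKO and 6.56 CPM in control dividing cells. Colec12, a collectin scavenger receptor, had 23.0 CPM in LPCAT3-AKO and 5.87 CPM in control dividing cells. For Cd209b, Ly6c2 and Mucl1 1 cell held at least 25% of the UMIs in the dividing cells of a library.

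The lowest ranks were mostly set by single cells. For 9 of the 10 lowest genes 1 cell held at least 25% of the UMIs in a library, and 8 of the 10 turned sign under at least 1 alternative. The pair that did not turn were Gdpd3, a lysophospholipase D, and Vcan, the proteoglycan versican. Gdpd3 had 5.66 CPM in LPCAT3-AKO and 30.1 CPM in control dividing cells and 8.09 CPM in LPCAT3-AKO and 74.2 CPM in control non-dividing cells, and was lower in both kinds of cell. It was also lower within both gates, with 6.09 CPM in LPCAT3-AKO and 35.6 CPM in control dividing cells of the Lyve1/Folr2 gate and 4.0 CPM in LPCAT3-AKO and 26.8 CPM in control dividing cells of the Retnla/Lyz1 gate. Vcan had 8.92 CPM in LPCAT3-AKO and 33.2 CPM in control dividing cells, and 1 cell held at least 25% of its UMIs in a library. Krt8, a keratin of simple epithelium, was among those that turned, with 50.8 CPM in LPCAT3-AKO and 182 CPM in control dividing cells, and 1 control cell held 70.2% of its UMIs.

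**Figure D5:**
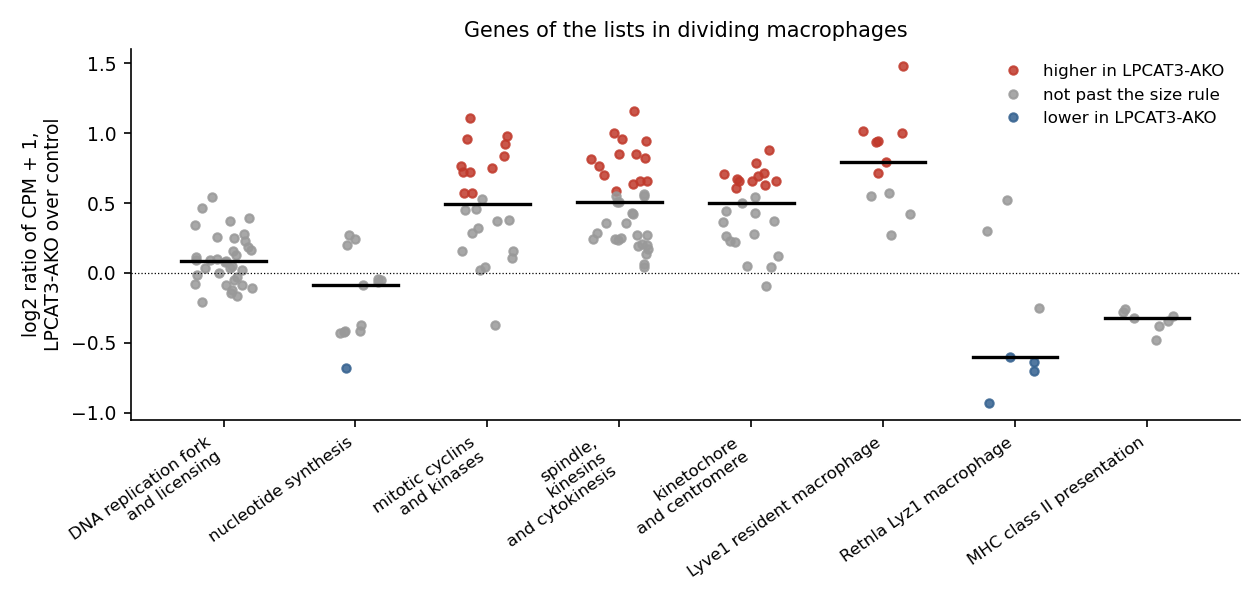
Log2 ratio of CPM + 1 in LPCAT3-AKO over control dividing macrophages (vertical axis) for the measured genes of 8 lists, with a line at the median of each list. Red points are genes higher in LPCAT3-AKO cells past the size rule, blue points lower, grey points neither. The replication list lies around 0.09, the mitotic lists around 0.5, the Lyve1 resident list at 0.79 and the Retnla Lyz1 list at -0.60.

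Markers of other cells were present at different levels. Of the epithelial list 4 of 4 measured genes were higher in dividing cells, with sums of 223 CPM in dividing against 123 CPM in non-dividing LPCAT3-AKO cells and 517 against 98.3 CPM in control cells. At even depth Krt8, Krt18 and Epcam were lower in the dividing cells of both libraries. Without the cells that had 3 or more UMIs of Krt8, Krt18 and Epcam, the dividing share was 11.4% in the LPCAT3-AKO and 5.19% in the control library, a ratio of 2.20. The fibroblast list summed to 868 CPM in dividing against 1022 CPM in non-dividing LPCAT3-AKO cells and 865 against 1078 CPM in control cells, with none of 8 genes past the size rule. The T cell list summed to at most 32.1 CPM, the NK cell list to at most 13 CPM and the B cell list to at most 10.9 CPM in any of the 4 groups, and none of their genes reached 20 CPM. The endothelial list summed to 54.2 CPM in dividing against 67.4 CPM in non-dividing LPCAT3-AKO cells and 61.8 against 73.0 CPM in control cells. Hbb-bs, a beta globin of red cells, had 6.0 CPM in dividing against 43.9 CPM in non-dividing LPCAT3-AKO cells and 2.07 against 164 CPM in control cells. The dendritic cell factor Zbtb46 had 4.46 CPM in dividing against 8.49 CPM in non-dividing LPCAT3-AKO cells and 4.84 against 9.76 CPM in control cells, and Flt3 was 0 by the gate. Apart from the values without keratin-positive cells, the part of these markers in the results was not tested.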

How the data were processed

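The matrices as deposited hold whole UMI counts for each gene in each barcode, with no normalization. Per the submitters' processing notes, Cell Ranger 6.1.2, the mm10 build and Seurat 4.10 were used. No effect of Seurat is visible in these counts. The cells, the marker gates, the gene lists and the alternatives were chosen with earlier results of these data known.

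Counts were read with scanpy 1.11.5, numpy 2.4.6 and scipy 1.17.1. Within each library the UMIs of a group's cells were added up and divided by the group's total (CPM). Shares carry exact Clopper-Pearson 95% intervals, and ratios exact binomial ones, which cover counting error only and not the spread between animals. No doublet was removed in the main analysis. Thinning drew 5000 UMIs per cell with seed 0. No p-value was computed. The steps were tested on simulated data.

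The genes named are those of the cell rule, the 12 highest, the 10 highest outside the division lists and the 15 lowest in dividing over non-dividing cells, ranked by the smaller of the 2 libraries' log2 ratios, the 10 highest and 10 lowest in LPCAT3-AKO over control dividing cells, and up to 4 members of each list. Mitochondrial, ribosomal protein, haemoglobin, immunoglobulin, sex-linked and unnamed (Gm and Rik) genes were left out of the ranked choices. Timd4 and Zbtb46 fall outside this rule and were chosen after their values were seen. The planned search for promoter motifs was not made. Some genes that the rule selects are not reported here.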

Additional observations from a re-analysis of the deposited data

How the results depend on the processing

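With 1 library per genotype no replicate could be left out. No paired analysis was possible because each group had 1 library. The ratio of the dividing shares stayed above 1 under every alternative tried, from 1.49 to 2.85. With a cut of 2 UMIs the dividing share was 14.2% in the LPCAT3-AKO and 7.23% in the control library, in the Lyve1/Folr2 gate 11.6% and 4.17% of the same libraries (ratio 2.78) and in the Retnla/Lyz1 gate 24.2% and 20.1%. The mitotic share was then 41.0% in the LPCAT3-AKO and 23.5% in the control library, and 256 genes were higher and 109 lower in LPCAT3-AKO cells. With a cut of 5 the dividing share was 9.02% in the LPCAT3-AKO and 3.98% in the control library, in the Lyve1/Folr2 gate 7.38% and 1.89%, in the Retnla/Lyz1 gate 16.3% and 12.3%, and the mitotic share 61.2% and 40.9%. Without the highest doublet scores 28.3% of control dividing cells lay in the Lyve1/Folr2 gate and 64.7% in the Retnla/Lyz1 gate, and 1.78% of the control Lyve1/Folr2 gate was dividing (ratio 4.97). With Dcn at 0 the dividing share was 9.46% in the LPCAT3-AKO and 4.16% in the control library, 8.10% in the LPCAT3-AKO Lyve1/Folr2 gate, 15.9% and 12.4% in the LPCAT3-AKO and control Retnla/Lyz1 gates, and the control mitotic share 20.5%. With the stricter filter on genes and mitochondrial UMIs 19.2% of the control Retnla/Lyz1 gate was dividing. With C1q required the control dividing share was 3.75% (ratio 2.85), the Lyve1/Folr2 gate held 71.5% of LPCAT3-AKO and 57.2% of control dividing cells, the Retnla/Lyz1 gate 18.5% and 35.5%, 12.3% of the control Retnla/Lyz1 gate was dividing, and the control mitotic share was 24.6%. Thinned to 5000 UMIs the LPCAT3-AKO dividing share was 9.95% at a cut of 3, and at a cut of 1 the shares were 21.6% in the LPCAT3-AKO and 14.5% in the control library (ratio 1.49). Thinned to 3000 UMIs they were 7.01% and 3.08% at a cut of 3 and 17.1% and 9.87% at a cut of 1 (ratio 1.73). By Nusap1, Cenpf and Birc5 they were 8.03% in the LPCAT3-AKO and 2.84% in the control library (ratio 2.83). With marker gates of 5 UMIs the Lyve1/Folr2 gate held 50.4% of LPCAT3-AKO and 30.6% of control dividing cells. With gates on thinned cells 3.27% of the control Lyve1/Folr2 gate and 24.2% of the LPCAT3-AKO and 21.7% of the control Retnla/Lyz1 gate were dividing. With Lyz1 alone 20.9% of LPCAT3-AKO and 37.5% of control dividing cells lay in that gate. A thinned mitotic gate of 5 UMIs held 24.4% of LPCAT3-AKO and 10.5% of control dividing cells. Genes lower in dividing cells numbered 289 at even depth and 264 at an even gate makeup. With a ratio of 2 in the size rule 376 genes were higher and 188 lower in dividing cells, and 69 higher and 42 lower in LPCAT3-AKO cells. At 10 CPM 291 were lower in LPCAT3-AKO cells, and with marker gates weighted alike 212 were higher. Of the 598 genes called in LPCAT3-AKO over control cells, 297 were still called with marker gates weighted alike and 254 with Dcn at 0. Of the 1356 called in dividing over non-dividing cells, 774 were still called at even depth and 810 at an even gate makeup. These log2 ratios changed sign. LPCAT3-AKO over control gave 1.96 for Krt8, 2.01 for Krt18 and 1.39 for Epcam without the highest doublet scores, 2.85 for Krt8, 2.70 for Krt18, 2.89 for Epcam and 0.053 for Lyz1 with Dcn at 0, 0.086 for Krt8 and 0.34 for Krt18 without keratin-positive cells, and 0.20 for Krt18 as a mean over cells. Dividing over non-dividing LPCAT3-AKO cells gave 0.87 for Spp1 with Dcn at 0 and -0.78 for Krt8, -0.25 for Krt18 and -0.68 for Epcam without keratin-positive cells. At even depth they gave -0.69 for Lyz1, -0.11 for Fn1, -0.20 for Ear2, -0.095 for Il6, -0.93 for Krt8, -0.94 for Krt18 and -1.04 for Epcam, and at an even gate makeup -0.097 for Lyz1. Dividing over non-dividing control cells gave -0.032 for Krt18 without keratin-positive cells, -0.24 for Krt8, -0.42 for Krt18 and -0.11 for Epcam at even depth, and -0.12 for Lyz1 and -0.18 for Ear2 at an even gate makeup. For Krt19 LPCAT3-AKO over control gave 2.58 without the highest doublet scores, 4.42 with Dcn at 0, 0.66 without keratin-positive cells and 0.056 as a mean over cells. Its dividing over non-dividing ratio was -0.44 in LPCAT3-AKO and -0.68 in control cells without keratin-positive cells, -0.44 in LPCAT3-AKO cells at even depth, and in control cells -0.68 without the highest doublet scores and -1.73 with Dcn at 0. The cause of these changes was not tested. The requirement of C1q, the exclusion of keratin-positive cells, the Lyz1 gate and the thinned mitotic gate were chosen after seeing the data. The planned search for promoter motifs was not run. The 216 control dividing cells limit the precision, most of all in the Plac8 gate, with 6.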
